A study of Mus musculus with 3 samples.

Results

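The genes described here encode 9 transcription factors that set and maintain the identity of hepatocytes, namely Hnf4a, Cebpa, Cebpb, Foxa2, Foxa3, Nr1h4, Nr1i2, Nr1i3 and Nr5a2. They were taken by gene symbol from the annotated table of log ratios. Each had 1 probe and a value on all arrays, so 9 of 23473 table rows, and 9 of 10179 named genes with complete values are described. The question put to them was whether these regulators lay as low after liver injury as the hepatocyte effector genes, such as Cyp2e1 and Car3, that carry out the work of the cell.

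The livers came from female mice of strain C57BL/6, and their RNA was hybridised to 3 arrays with 2 channels each. The Cy3 channel held TMX-/- liver taken 24 h after LPS/GalN on one array, wild-type liver 24 h after LPS/GalN on another, and untreated TMX-/- liver on the remaining one, while the Cy5 channel of every array held untreated wild-type liver. LPS/GalN is an intraperitoneal mixture of 3 ng lipopolysaccharide, a bacterial cell wall component, and 10 mg D-galactosamine, which sensitises hepatocytes to inflammatory death signals. TMX is a transmembrane member of the thioredoxin family in the endoplasmic reticulum, and TMX-/- mice (TMX-null below) lack it. The sources used here do not give how the allele was made, the age of the mice, or whether animals were pooled. Each group had 1 array and dyes were not exchanged, so no test was possible, no p-value is given and a dye effect cannot be told apart from a difference to untreated wild-type liver. Values are given as log2 ratios to that untreated liver, centred on the median gene of each array, or differences between such ratios. The only error at hand is the SD of a single probe, from 81 genes with 2 probes each, which was 0.76 in TMX-null LPS/GalN liver, 0.42 in wild-type LPS/GalN liver and 0.42 in untreated TMX-null liver. It leaves out the variation between mice.

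The submitters' labels say neither which channel was the numerator nor the base of the logarithm. Base 2 was assumed, and with natural logarithms each log2 value would be 1.44 times as large. Tmx1, which encodes TMX, stood at -3.88 in TMX-null LPS/GalN liver, 0.59 in wild-type LPS/GalN liver and -2.96 in untreated TMX-null liver, where it had the lowest value of all 10179 genes. Sample over reference is therefore the likely direction, on the basis of that gene, and every "higher" and "lower" below rests on it.

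Hepatocyte identity depends on a network in which these factors bind together at liver enhancers and maintain each other's transcription. FOXA factors open chromatin early in liver development, HNF4A and C/EBP alpha drive the mature metabolic programme, and the nuclear receptors FXR (Nr1h4), PXR (Nr1i2), CAR (Nr1i3) and LRH-1 (Nr5a2) adjust bile acid, drug and cholesterol metabolism to their ligands. C/EBP beta takes part in the acute phase response and in liver regeneration. Effector genes such as Cyp2e1, which encodes an ethanol- and acetaminophen-oxidising cytochrome P450, and Car3, a carbonic anhydrase, lie downstream of such factors.

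The bases before the transcription start are shown for 5 genes that are singled out in the values below. Cebpa and Nr5a2 were the regulators at least 2-fold lower in TMX-null LPS/GalN liver, Foxa3 was the one at least 2-fold higher, Cyp2e1 is the effector gene the question names, and Alb, which encodes albumin, was among the genes closest to Cebpa over the arrays. Each sequence is 250 bases of RefSeq's GRCm38.p6 assembly, read 5′ to 3′ on the gene's strand and ending at the base before the annotated start. They are chr7:35119043-35119292 (plus strand) for Cebpa, chr1:136960449-136960698 (minus strand) for the more upstream of 2 starts of Nr5a2, chr7:19023540-19023789 (minus strand) for Foxa3, chr7:140763569-140763818 (plus strand) for Cyp2e1 and chr5:90460620-90460869 (plus strand) for Alb. Capitals mark matches, on either strand, to the nuclear receptor half-site AGGTCA, the C/EBP motif TTGCNNAA, the FOXA motif TGTTTAC, the HNF4 motif CAAAGTCC or the HNF1 motif GTTAATNAT.
Cebpa: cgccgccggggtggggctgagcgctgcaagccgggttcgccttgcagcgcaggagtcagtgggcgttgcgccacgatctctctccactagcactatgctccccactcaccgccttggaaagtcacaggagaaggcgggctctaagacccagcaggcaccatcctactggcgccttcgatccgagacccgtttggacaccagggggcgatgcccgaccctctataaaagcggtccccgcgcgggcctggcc
Nr5a2: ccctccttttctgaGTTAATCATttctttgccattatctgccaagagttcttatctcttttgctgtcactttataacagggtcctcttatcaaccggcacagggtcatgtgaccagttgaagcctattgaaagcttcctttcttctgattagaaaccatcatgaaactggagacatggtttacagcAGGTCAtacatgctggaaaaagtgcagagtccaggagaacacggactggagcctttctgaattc
Foxa3: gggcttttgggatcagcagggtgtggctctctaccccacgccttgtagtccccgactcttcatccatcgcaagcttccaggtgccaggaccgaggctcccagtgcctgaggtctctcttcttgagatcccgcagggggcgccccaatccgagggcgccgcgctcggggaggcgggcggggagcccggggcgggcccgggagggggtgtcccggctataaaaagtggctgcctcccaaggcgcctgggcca
Cyp2e1: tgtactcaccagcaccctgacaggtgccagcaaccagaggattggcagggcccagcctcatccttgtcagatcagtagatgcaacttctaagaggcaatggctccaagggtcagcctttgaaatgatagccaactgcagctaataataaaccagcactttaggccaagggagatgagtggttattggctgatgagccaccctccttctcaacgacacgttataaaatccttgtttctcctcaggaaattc
Alb: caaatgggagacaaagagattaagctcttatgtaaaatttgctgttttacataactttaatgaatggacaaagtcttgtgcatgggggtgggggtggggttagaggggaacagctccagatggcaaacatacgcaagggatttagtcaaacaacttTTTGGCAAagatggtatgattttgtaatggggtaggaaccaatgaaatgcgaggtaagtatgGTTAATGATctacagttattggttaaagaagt

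Nr5a2 held an HNF1 match that began 236 bases before its start and a half-site that began 64 bases before it. Alb held a C/EBP match that began 94 bases and an HNF1 match that began 32 bases before its start, and the letters of the 5 motifs were found nowhere in the 250 bases of Cebpa, Foxa3 or Cyp2e1. Over windows that also include the 50 bases after each start, the half-site was found in 2 of 13 windows of the 9 regulators (15.4%), belonging to Nr5a2 and Nr1h4. It was found in 25 of 58 windows of 52 effector genes (43.1%) and in 13.4% of the 10484 windows of genes with complete values. The C/EBP motif was found in 1 of 13 regulator windows, the other start of Nr5a2, in 17 of 58 effector windows (29.3%) and in 9.07% of those of genes with complete values. The FOXA motif was found in 0 of 13, 5 of 58 (8.62%) and 2.82% of these windows, the HNF4 motif in 0 of 13, 2 of 58 (3.45%) and 1.41%, and the HNF1 motif in 1 of 13, 2 of 58 (3.45%) and 0.582%. Over all 32851 windows of the table the shares were 16.3% for the half-site, 10.8% for C/EBP, 3.65% for FOXA, 1.42% for HNF4 and 0.801% for HNF1. Base composition differed too, with a median GC content of 54% in regulator windows, 49.3% in effector windows and 60% in windows of genes with complete values, and its part in these shares was not tested. A match to these letters is a description of the sequence, not of binding.

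In TMX-null LPS/GalN liver, 2 of the 9 regulators, Cebpa and Nr5a2, were at least 2-fold below untreated wild-type liver, and 1, Foxa3, was at least 2-fold above it. Over all genes 13.2% were at least 2-fold lower and 13.6% at least 2-fold higher there. The median regulator stood at -0.46, with 7 of 9 below 0. With all arrays scaled to the same spread, all of these regulator calls ended, with Cebpa at -0.88, Nr5a2 at -0.50 and Foxa3 at 0.50, and the median was -0.21. That scaling shrinks all values on this array by the same factor, so the loss of these calls is no separate check of the regulators. The cause of this array's wider spread was not tested. In wild-type LPS/GalN liver 1 regulator, Cebpa, was at least 2-fold lower (1.75% of all genes) and 1, Foxa3, at least 2-fold higher (2.8%), and the median was 0.08. In untreated TMX-null liver 0 were at least 2-fold lower (0.835% of all genes), Foxa3 alone was at least 2-fold higher (1.78%), and the median was -0.17. That call was narrow, as Foxa3 stood at 0.987 there without centring and at 0.990 when all genes with a value on that array were used, and at 0.995 in TMX-null LPS/GalN liver under the second of these choices. With so few members, the shares of regulators differ from those of all genes by 1 or 2 genes.

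**Figure D1:**
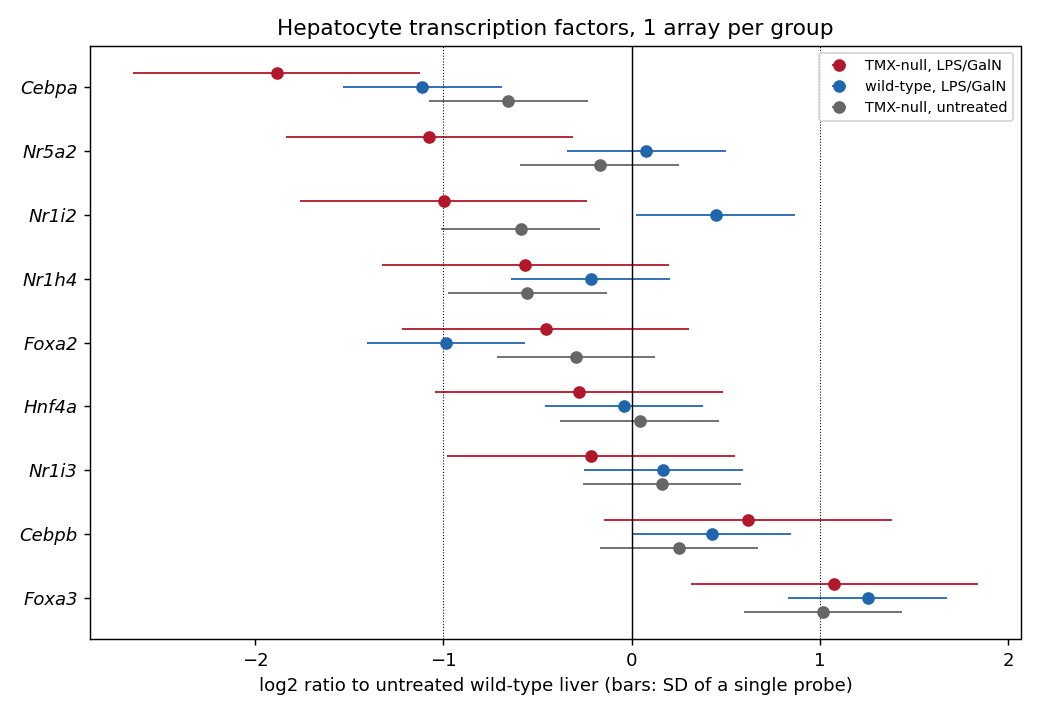
Log2 ratios to untreated wild-type liver (horizontal axis) of the 9 regulators (rows) in TMX-null LPS/GalN, wild-type LPS/GalN and untreated TMX-null liver, 1 array each; bars are the SD of a single probe on that array (0.76, 0.42 and 0.42) and dotted lines mark 2-fold. Cebpa lies left of 0 and Foxa3 right of 0 on all 3 arrays, while Nr1i2 and Nr5a2 lie at -0.999 and -1.07 in TMX-null LPS/GalN liver and right of 0 in wild-type LPS/GalN liver.

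Among the C/EBP factors, Cebpa, whose product drives albumin, glycogen and urea cycle genes and holds hepatocytes out of the cell cycle, stood at -1.89 in TMX-null LPS/GalN liver, -1.11 in wild-type LPS/GalN liver and -0.65 in untreated TMX-null liver. These are 3.70-fold, 2.16-fold and 1.57-fold below untreated wild-type liver, and each exceeds the SD of a single probe on its array. Cebpa was the lowest regulator in all 3 livers, and 3.8%, 1.2% and 4.0% of all genes lay below it there. Treated against untreated TMX-null liver gave a difference of -1.23, and TMX-null against wild-type liver, both treated, -0.78. With all arrays scaled to the same spread they were -0.12 and 0.23, so neither kept its size and the second turned its sign. Cebpb, whose product activates acute phase genes, stood at 0.62, 0.43 and 0.25 in the same 3 livers. It was the regulator next to Foxa3 at the high end in TMX-null LPS/GalN liver, and none of its values reached 2-fold.

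Of the FOXA factors, Foxa3, the most abundant of them in adult mouse liver, stood at 1.08 in TMX-null LPS/GalN liver, 1.25 in wild-type LPS/GalN liver and 1.02 in untreated TMX-null liver. It lay about equally high on all 3 arrays, which share the untreated wild-type RNA and the dyes, and treated against untreated TMX-null liver differed by 0.06 (-0.69 with all arrays scaled to the same spread). Foxa2, which acts in bile acid transport and fasting metabolism, stood at -0.46, -0.99 and -0.30. Its lowest value was in wild-type LPS/GalN liver, where 1.8% of all genes lay below it, and TMX-null LPS/GalN liver stood 0.53 above that liver, within the single-probe SD of 0.59 for this difference. Foxa1, a relative in early liver development, stood at -0.27, 0.18 and -0.05.

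Hnf4a, the nuclear receptor at the centre of the adult hepatocyte network, stood at -0.28 in TMX-null LPS/GalN liver, -0.04 in wild-type LPS/GalN liver and 0.04 in untreated TMX-null liver. All 3 values are smaller than the SD of a single probe, and 37.4% of all genes lay below Hnf4a in TMX-null LPS/GalN liver. Nr5a2, which encodes LRH-1, an activator of bile acid synthesis genes, stood at -1.07, 0.08 and -0.17. It was 2.11-fold below untreated wild-type liver in TMX-null LPS/GalN liver, and that liver stood 1.15 below wild-type LPS/GalN liver and 0.90 below untreated TMX-null liver, against single-probe SDs of 0.59 and 0.67 for these differences. These differences were -0.58 and -0.30 with all arrays scaled to the same spread.

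The ligand-responsive receptors did not share one pattern. Nr1i2, which encodes PXR, the sensor of drugs and foreign compounds, stood at -0.999 in TMX-null LPS/GalN liver, 0.45 in wild-type LPS/GalN liver and -0.59 in untreated TMX-null liver. It lay just short of 2-fold lower in the first of these, and past it without centring (-1.07) or with all genes of that array (-1.08), which gives 3 regulators at least 2-fold lower there. The difference of -1.45 between treated TMX-null and treated wild-type liver was the lowest of the 9 for that comparison, in which 2 of 9 regulators, Nr1i2 and Nr5a2, were at least 2-fold lower (10.6% of all genes) and 0 at least 2-fold higher (9.64%). That difference was -0.91 with equal spread on all arrays, and 0 regulators were then at least 2-fold lower. Treated against untreated TMX-null liver stood at -0.41 for Nr1i2, and at 0.22 with equal spread. Nr1i3, which encodes CAR, the partner of PXR in drug metabolism, stood at -0.22, 0.17 and 0.16, all within the SD of a single probe. Nr1h4, which encodes the bile acid receptor FXR, stood at -0.56, -0.22 and -0.55, and was thus about as low in TMX-null liver with LPS/GalN as without it, although with equal spread the treated liver stood 0.38 above the untreated one.

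The response within TMX-null liver, treated against untreated, had a median of -0.32 over the 9 regulators, with 7 of 9 below 0 and 1, Cebpa, at least 2-fold lower (12.1% of all genes). None was at least 2-fold higher (11.4% of all genes). Ordered from the lowest, the regulators ran Cebpa (-1.23), Nr5a2 (-0.90), Nr1i2 (-0.41), Nr1i3 (-0.38), Hnf4a (-0.32), Foxa2 (-0.16), Nr1h4 (-0.01), Foxa3 (0.06) and Cebpb (0.37). No neighbours in this order differ by more than the single-probe SD of 0.67. The order depends on the scaling. Scaled to the same spread on all arrays, Foxa3 was the lowest (-0.69), followed by Nr5a2 (-0.30), Nr1i3 (-0.29), Hnf4a (-0.18) and Cebpa (-0.12), with Cebpb at -0.01, Foxa2 at 0.13, Nr1i2 at 0.22 and Nr1h4 at 0.38. The median was then -0.12 and 0 regulators were at least 2-fold lower. The untreated wild-type RNA cancels in these differences if the same preparation was used on both arrays.

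The effector genes lay much lower than the regulators after LPS/GalN in TMX-null liver. Of 68 effector genes with complete values among 80 listed enzymes, transporters and secreted proteins of hepatocytes, 62 were at least 2-fold lower than in untreated wild-type liver and 0 were at least 2-fold higher. Their median was -2.28, which is 4.86-fold, against -0.46 or 1.37-fold for the regulators, a difference of 1.82 between the medians. The middle range of the effector genes, from the lower to the upper quartile, ran from -3.15 to -1.47, and that of the regulators from -0.999 to -0.22. Cyp2e1 stood at -4.47 and Car3 at -4.86, and 0 of 9 regulators lay as low as either. Cebpa, the lowest regulator, lay 2.59 above Cyp2e1 and 2.98 above Car3, and 39 of 68 effector genes (57.4%) lay at or below Cebpa. All 9 regulators lay above the median of these 68 effector genes. The effector list was drawn up with some of its values known. Without the 17 genes whose values were known when the list was made, the median of the other 51 was -1.77, with 46 at least 2-fold lower, and the difference to the regulators was 1.32.

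The lowest effector genes in TMX-null LPS/GalN liver were the uridine phosphorylase gene Upp2 (-6.33), the methyltransferase gene Inmt (-5.39), the lipogenic regulator Thrsp (-5.29) and Serpina6 (-5.15), which encodes corticosteroid-binding globulin. They were followed by Car3, the ornithine aminotransferase gene Oat (-4.67), Cyp2e1 and the steroid reductase gene Akr1d1 (-4.42). At the other end stood the organic anion exporter gene Abcc2 (0.23), the apolipoprotein gene Apob (-0.14), Hsd17b13 (-0.35), a lipid droplet protein gene, and Cpt1a (-0.37), which encodes the gatekeeper of mitochondrial fatty acid oxidation. The 68 effector genes spanned a wider range than the 9 regulators, as a longer list tends to, and their upper end overlapped with that of the regulators.

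In wild-type LPS/GalN liver the 2 groups of genes lay closer. The effector median was -0.37 and the regulator median 0.08, with 12 of 68 effector genes at least 2-fold lower. Cyp2e1 stood at -1.54 and Cebpa at -1.11, a gap of 0.43 that is about the SD of a single probe, and 10 of 68 effector genes (14.7%) lay at or below Cebpa. Car3 stood at 0.34 there, above 6 of 9 regulators, so the 2 effector genes named in the question did not go together in that liver. In untreated TMX-null liver the effector median was -0.27 and the regulator median -0.17, with Cyp2e1 at -0.96, Car3 at -0.50 and Cebpa at -0.65.

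**Figure D2:**
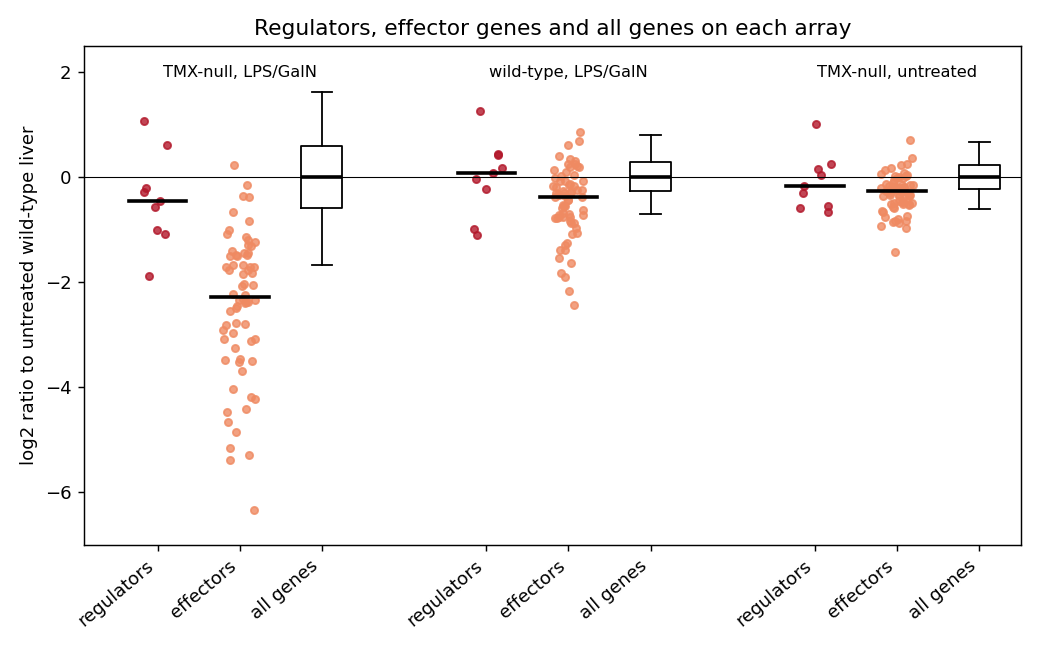
Log2 ratios to untreated wild-type liver (vertical axis) of the 9 regulators, 68 effector genes and all 10179 genes on each of the 3 arrays; points are genes, thick lines medians, boxes the quartiles and whiskers the central 90% of all genes. In TMX-null LPS/GalN liver the effector median of -2.28 lies 1.82 below that of the regulators, and on the other arrays the medians differ by 0.45 and 0.10.

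Between the arrays themselves, free of the untreated wild-type RNA if it was one preparation, the regulator median was -0.32 and the effector median -1.94 for treated against untreated TMX-null liver, where 58 of 68 effector genes were at least 2-fold lower. For TMX-null against wild-type liver, both treated, these medians were -0.35 and -1.74, with 52 of 68 effector genes at least 2-fold lower. The difference of the responses of the 2 genotypes had medians of -0.28 for regulators and -1.49 for effector genes. With all arrays scaled to the same spread, the gap between the medians was 0.85 in TMX-null LPS/GalN liver against untreated wild-type liver, 0.58 for treated against untreated TMX-null liver, 0.37 between the treated livers and 0.05 for the difference of responses, so that little of the last remained.

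Each regulator was then set beside textbook target genes, several of which are also effector genes. The target lists share genes and are not independent. Alb, Tat and Pck1, for example, are targets of both C/EBP alpha and FOXA, and Cyp8b1 stands in the HNF4A, LRH-1 and FXR lists. Cebpa (-1.89) stood in TMX-null LPS/GalN liver at the median of its 6 measured targets (-1.83), of which 5 were at least 2-fold lower, among them Cps1 (-2.39), the entry enzyme of the urea cycle, the liver glycogen synthase gene Gys2 (-2.37) and Alb (-1.84). Hamp, which encodes the iron hormone hepcidin, stood at -0.88 there but at -3.99 in wild-type LPS/GalN liver. Cebpa lay apart from the median of its targets elsewhere, at -1.11 against -0.22 in wild-type LPS/GalN liver, -0.65 against -0.01 in untreated TMX-null liver, and -0.78 against -1.96 for the difference between the treated livers. Nr1i2 (-0.999) stood beside a median of -1.005 in 8 PXR targets, which ran from the uptake transporter gene Slco1a4 (-3.05) and the drug-oxidising Cyp3a11 (-2.46) to Abcc2 (0.23). It too lay apart from its targets elsewhere, at 0.45 against a median of 0.04 in wild-type LPS/GalN liver, -0.59 against 0.05 in untreated TMX-null liver, where 0 of 8 targets lay below it, and -1.45 against -0.87 between the treated livers.

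For every regulator other than Cebpa and Nr1i2, the median target lay lower than the regulator in TMX-null LPS/GalN liver. Nr5a2 stood at -1.07 against a median of -1.77, and Cebpb at 0.62 against -0.64. Nr1h4 stood at -0.56 against -1.16 for the genes that FXR induces. Of 13 HNF4A targets, 8 were at least 2-fold lower and 2 at least 2-fold higher in TMX-null LPS/GalN liver, with a median of -1.32 and 9 below Hnf4a. They ran from the sterol hydroxylase gene Cyp8b1 (-4.04), Apoa2 (-3.09) and the clotting factor gene F7 (-2.55) to Apoc2 (1.41) and Apoa4 (2.40), so genes of the apolipoprotein class lay at both ends. Of 8 CAR targets, 5 were at least 2-fold lower, with Cyp1a2 at -3.46 and Cyp2c37 at -2.45, while Gadd45b, a stress gene that inflammation also induces, stood at 2.70. Of 7 FOXA targets, 5 were at least 2-fold lower and Igfbp1, a fasting and stress gene, stood at 3.15. Foxa2 (-0.46) also lay above the median of these targets (-1.82) there. In wild-type LPS/GalN liver it lay below their median, at -0.99 against 0.31. For the difference of responses Hnf4a (-0.28) lay below the median of its own targets (-0.10).

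FXR targets showed both arms of bile acid control low together. Of 10 genes that FXR induces, 6 were at least 2-fold lower in TMX-null LPS/GalN liver, led by the bile salt export pump gene Abcb11 (-2.98), and 2 were at least 2-fold higher, the basolateral exporter subunit gene Slc51b (1.40) and Apoc2. Of 4 genes that FXR signalling lowers, 3 were at least 2-fold lower as well, namely Cyp7a1 (-4.22), which encodes the enzyme that commits cholesterol to bile acids, Cyp8b1 and the bile acid uptake transporter gene Slc10a1 (-2.92). Nr0b2, which encodes SHP, the repressor through which FXR lowers Cyp7a1, stood at -1.29 in TMX-null LPS/GalN liver, 0.98 in wild-type LPS/GalN liver and 0.45 in untreated TMX-null liver. Of 6 LRH-1 targets, 5 were at least 2-fold lower, among them the sterol exporter genes Abcg8 (-2.25) and Abcg5 (-1.29).

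Acute phase targets of C/EBP beta were split. In TMX-null LPS/GalN liver 3 of 8 were at least 2-fold higher, Lcn2 (2.28), Orm2 (1.97) and Saa3 (1.0004), and 2 at least 2-fold lower, Crp (-1.42) and Hpx (-1.30). Over all genes these shares were 13.6% and 13.2%. The call of Saa3 was narrow and would be lost without centring, since the median subtracted on that array was -0.07. In wild-type LPS/GalN liver 4 of 8 were at least 2-fold higher (2.8% of all genes), with Saa3 at 4.22, and 0 at least 2-fold lower (1.75%). Cebpb itself differed by 0.19 between these livers.

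**Figure D3:**
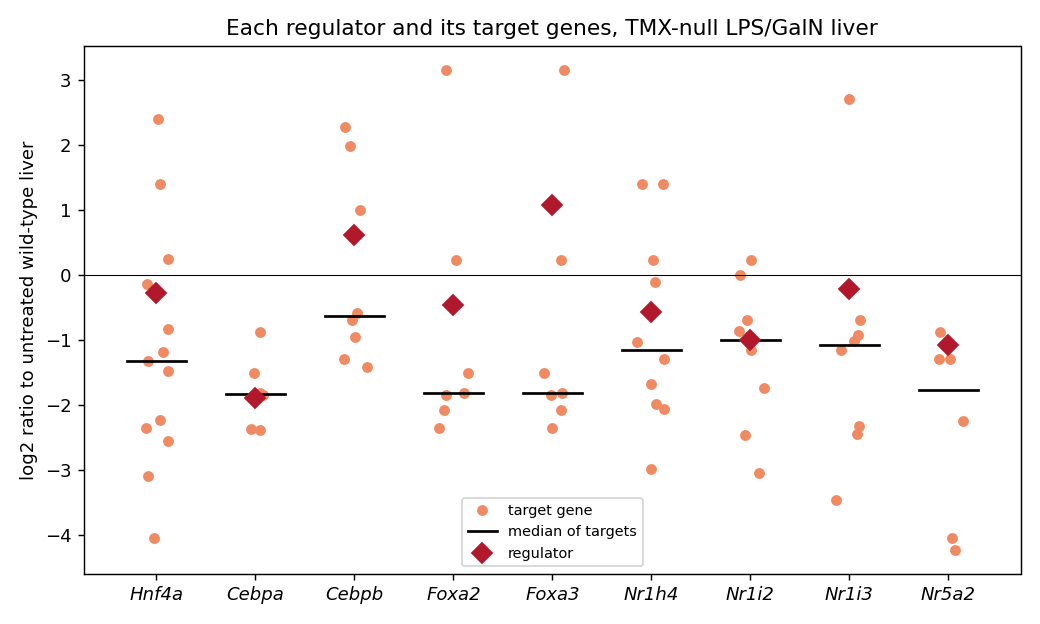
Log2 ratios to untreated wild-type liver (vertical axis) in TMX-null LPS/GalN liver, 1 array, of each regulator (diamond), its textbook target genes (points) and their median (line). Cebpa and Nr1i2 lie at the median of their targets, whereas the other regulators lie above theirs.

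Other transcription factors of hepatocytes, 42 with complete values among 58 listed, were set beside the 9 regulators. In TMX-null LPS/GalN liver they ran from -5.25 to 2.87 (SD over genes 1.29), against -1.89 to 1.08 (SD over genes 0.89) for the regulators. A range tends to widen with the number of genes, here 42 against 9. Of the 42, 10 were at least 2-fold lower and 2 at least 2-fold higher in TMX-null LPS/GalN liver, with a median of -0.17. These shares were 23.8% and 4.76%, against 13.2% and 13.6% of all genes. The lowest were Dbp (-5.25) and Tef (-2.40), clock output factors of the PAR bZIP family, Klf15 (-3.02), a regulator of amino acid catabolism, Srebf1 (-2.43), which drives lipogenesis, and Mlxipl (-1.81), which encodes the carbohydrate sensor ChREBP. Among the effector genes, Upp2, Inmt and Thrsp lay below Dbp. Rxra, the partner with which FXR, PXR and CAR bind DNA, stood at -1.56 in TMX-null LPS/GalN liver, -0.22 in wild-type LPS/GalN liver and -0.03 in untreated TMX-null liver. Gata6 (1.24) and the core clock activator Arntl (2.87) were the 2 higher ones. Onecut1, a factor of liver development, stood at -0.40, -1.01 and 0.34 in the 3 livers, and Ppara, the fatty acid receptor, at 0.03, 0.59 and 1.09.

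**Figure D4:**
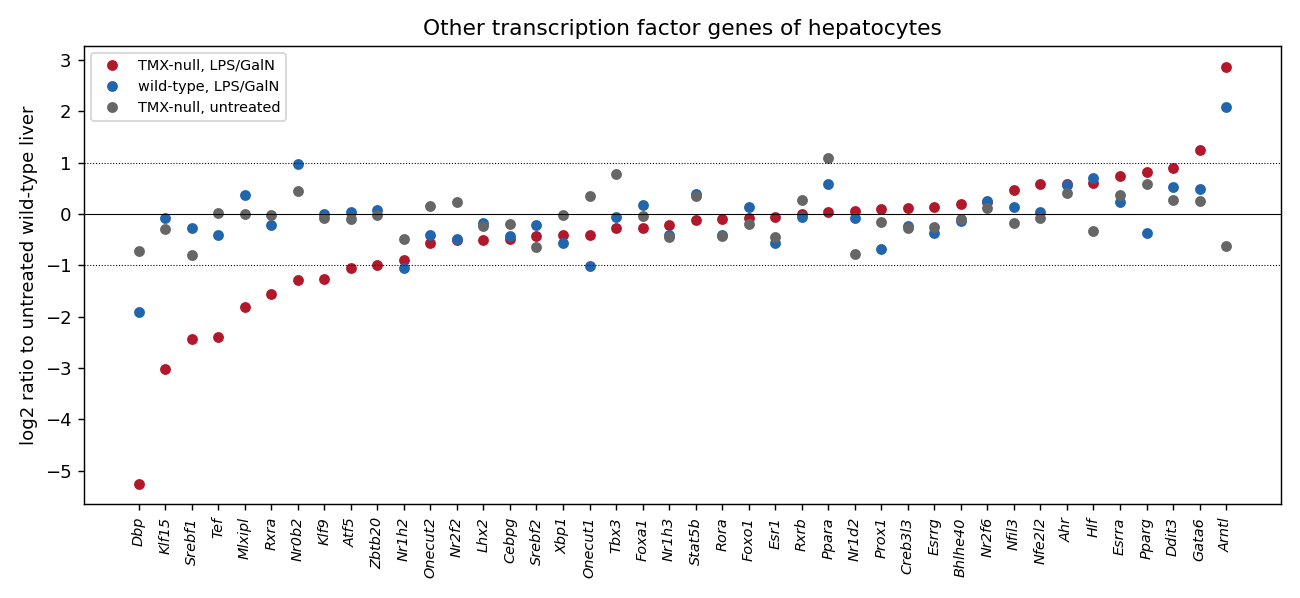
Log2 ratios to untreated wild-type liver (vertical axis) of 42 other transcription factor genes (horizontal axis, ordered by TMX-null LPS/GalN liver) on the 3 arrays, with dotted lines at 2-fold. Dbp, Klf15, Srebf1 and Tef lie below -2 in TMX-null LPS/GalN liver and Arntl lies above 2 in both treated livers.

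Among 29 nuclear receptor genes with complete values, the 4 lowest in TMX-null LPS/GalN liver were Rxra, Nr0b2, Nr5a2 and Nr1i2. Of the 29, 3 (10.3%) were at least 2-fold lower, against 13.2% of all genes. Nr4a1 (1.65), an immediate early receptor, was the single one at least 2-fold higher (3.45%, against 13.6% of all genes). Of 14 coregulator genes, Ppargc1b (-1.79) and Carm1 (-1.62) were at least 2-fold lower and Nrip1 (1.38) and Prmt1 (2.00) at least 2-fold higher. Each of these shares was 14.3%, near that of all genes. Among the relatives of the 9 regulators, Cebpe, a myeloid C/EBP factor, stood at -1.55, Nr1h2 at -0.89 and Ddit3, which encodes the stress factor CHOP, at 0.90. Of 12 fetal hepatocyte and progenitor genes, 5 had complete values and all 5 lay above 0, with Spp1 (1.65) and Igf2 (1.49) at least 2-fold higher. Igf2 already stood at 1.07 in untreated TMX-null liver. In wild-type LPS/GalN and untreated TMX-null liver, 2 of the 5 lay below 0. Sox9, Spp1 and Epcam of this list are also among the cholangiocyte markers.

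Markers of other cells also differed from untreated wild-type liver. In TMX-null LPS/GalN, wild-type LPS/GalN and untreated TMX-null liver, 10, 9 and 3 of 14 macrophage markers were at least 2-fold higher, with ranges of -0.45 to 4.10, -0.26 to 3.13 and -0.43 to 1.30. Of 4 neutrophil markers 3, 1 and 0 were at least 2-fold higher, of 8 stellate cell markers 5, 2 and 0, of 7 lymphocyte markers 3, 1 and 2, of 7 endothelial markers 2, 0 and 0, and of 6 cholangiocyte markers 1, 0 and 0. The neutrophil marker Ly6g (-2.50) and the cholangiocyte marker Cftr (-1.22) were at least 2-fold lower in TMX-null LPS/GalN liver. Both monocyte markers with complete values were at least 2-fold higher in TMX-null LPS/GalN liver, at 3.09 and 5.45. Hepatocyte markers, which include Hnf4a and several effector genes, had medians of -1.84, -0.36 and -0.36, with 9, 4 and 0 of 13 at least 2-fold lower. In whole liver RNA, fewer hepatocytes and less RNA per hepatocyte cannot be told apart, and the part of cell composition in the regulators' values was not tested. Log ratios give no levels, so the tissue label itself could not be checked against marker levels.

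The genes whose 3 ratios lay closest to a regulator's were found by Euclidean distance over the arrays. Closest to Cebpa were Izumo4 (0.08), Alb (0.11) and the apolipoprotein gene Apoe (0.18). Closest to Nr5a2 were Cnpy2 (0.05), Ap3m1 (0.07) and Prkd3 (0.07), to Hnf4a Slc9a3r2 (0.03), Zbed4 (0.04) and Gaa (0.04), and to Foxa3 Ints6 (0.13), Dsn1 (0.15) and Klrk1 (0.18). Distances over 3 arrays that share a reference describe these values and no more.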

How the data were processed

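The authors deposited 1 table of log ratios of the 2 channels of each array, read here on the log2 scale. The base, numerator, normalization, background treatment and reason for blanks are not stated there. Deposited columns had medians of 1.14e-04, -7.06e-06 and -6.94e-05 in TMX-null LPS/GalN, wild-type LPS/GalN and untreated TMX-null liver, so they had been centred. No signal was at hand, and precision is limited by the number of arrays. Per the labels' protocols, RNA was extracted with a miRNeasy kit and amplified as amino allyl RNA.

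GEO's platform annotation named 16631 of 23473 rows with 1 symbol each, and the other 6842 had no single symbol and were left out. Of the named rows, 12622 symbols were current in the mouse RefSeq table (GRCm38.p6), 3947 were updated through its synonyms and 62 stayed as annotated. Probes of a gene with values on all 3 arrays were averaged (86 genes had several), giving 10179 genes. Each array was centred on its median over them, which was -0.07, -0.05 and -0.03 in the same order. Genes were counted as lower or higher at 2-fold, a log2 ratio of 1. All 9 regulators and every measured gene of the lists of other regulators, relatives, coregulators and targets could be named, as could the 8 lowest and 4 highest effector genes, the extremes of the other lists and the 3 nearest genes of each regulator. The members and lists were chosen with earlier results of these data known. The steps were tested on simulated data. Python 3.11.15, pandas 2.3.3, NumPy 2.4.6 and Matplotlib 3.10.9 were used. Promoter sequences are RefSeq's, and 9 of 9 regulators and 52 of 68 effector genes matched. Alternatives were other centring, scaling, probe, naming, threshold and logarithm choices.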

Additional observations from a re-analysis of the deposited data

Results flagged for a closer look

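For 3 of the 9 regulators, the response to LPS/GalN, on 1 array per group, had opposite signs in the 2 genotypes. The difference of the responses, TMX-null minus wild-type, was -0.86 for Nr1i2, -0.55 for Nr1i3 and -0.98 for Nr5a2. The response of Nr1i2 was -0.41 in TMX-null and 0.45 in wild-type liver, that of Nr1i3 -0.38 and 0.17, and that of Nr5a2 -0.90 and 0.08. The difference was not tested, since each group had 1 array, and the single-probe SD for it was 0.65. With all arrays scaled to the same spread, the response of Nr1i2 in TMX-null liver was 0.22, so the opposite sign was lost for this gene, while the responses of Nr1i3 (-0.29) and Nr5a2 (-0.30) stayed below 0. The signs of Cebpb, Foxa2, Foxa3 and Nr1h4 were then opposite in the 2 genotypes. Over all genes 36.5% had responses of opposite sign, and 3 of 9 regulators is near that share. The share was not counted with equal spread. The wild-type responses of Nr1i3 and Nr5a2 were also smaller than the single-probe SD of 0.42 on that array, so their signs are uncertain.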

How the results depend on the processing

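No paired analysis was possible because each group had 1 array. Between the 9 regulators and the effector genes, the gap of medians is regulators minus effector genes. With all arrays scaled to the same spread it was 0.85 for TMX-null LPS/GalN against untreated wild-type liver, 0.58 for treated against untreated TMX-null liver, 0.37 between the treated livers and 0.047 for the difference of responses, and 0 regulators were 2-fold lower in the first 3 of these. Read as natural logarithms the first 3 gaps were 2.63, 2.34 and 2.00, and 2 regulators were 2-fold lower in wild-type LPS/GalN liver, 2 in treated against untreated TMX-null liver and 3 in the difference of responses. At 1.5-fold the regulators lower numbered 2 in wild-type LPS/GalN liver, 2 in untreated TMX-null liver, 2 in treated against untreated TMX-null liver, 3 in the difference of responses and 1 in treated wild-type against untreated TMX-null liver. The last comparison was added after seeing the data, as was the shorter effector list. At 3-fold they numbered 1 in TMX-null LPS/GalN liver and 0 in wild-type LPS/GalN liver, in both comparisons of treated TMX-null liver with another array and in the difference of responses. The share of all genes was not counted at these thresholds, with natural logarithms or with equal spread. Nor was it counted for the difference of responses or for treated wild-type against untreated TMX-null liver. Counts of regulators there cannot be set against all genes and describe the settings only. Effector genes 2-fold lower, 62, 58, 52 and 45 of 68 in the 4 comparisons first given, numbered 36, 24, 18 and 13 with equal spread. In wild-type LPS/GalN liver, where they numbered 12, they were 24 as natural logarithms, 26 at 1.5-fold, 5 at 3-fold and 5 without the genes of known values. In untreated TMX-null liver, where 1 was lower, these counts were 10, 13, 0 and 0, and 4 with equal spread. Foxa2 passed 2-fold in wild-type LPS/GalN liver, giving 2 regulators there, without centring and with all genes of that array. Under the same choices Nr1i2 passed 2-fold in TMX-null LPS/GalN liver (-1.07 and -1.08), giving 3 regulators lower, and Foxa3 fell short of it in untreated TMX-null liver (0.987 and 0.990). Read as natural logarithms Nr1i2 stood at -1.44. With the numerator turned, every sign turns by construction. Cebpa would stand at 1.89 and 1.11 in the treated livers and 1.23 within TMX-null liver, Foxa3 at -1.08, -1.25 and -1.02 on the 3 arrays and 1.19 for the difference of responses, Nr5a2 at 1.07 in TMX-null LPS/GalN liver and 1.15 between the treated livers, and Nr1i2 at 1.45 between the treated livers and -1.04 for treated wild-type against untreated TMX-null liver. Effector medians would be 2.28, 1.94, 1.74 and 1.49, and gaps -1.82, -1.62, -1.39 and -1.21, for the 4 comparisons in the order first given, with gaps of -0.45 in wild-type LPS/GalN liver and -0.33 for treated wild-type against untreated TMX-null liver. Leaving aside these last choices of numerator and logarithm, 309 of 315 values of single regulators moved by less than the single-probe SD and 0 that were past 2-fold changed sign. The other 6, of Cebpa and Foxa3, moved under scaling to equal spread, where the cause was not tested. Each regulator had 1 probe, so choices of centring, probe, naming and gene set could shift its value only through the array's median. Most of these comparisons therefore could hardly move, and their count is no measure of stability. Sign changes of values short of 2-fold were not counted, and several turned with equal spread.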
